A study of Oryza sativa Japonica Group with 4 samples.

Results

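Homeobox, WOX and YABBY genes encode transcription factors that set up the axes, margins, veins and epidermis of the leaf. A total of 62 such genes were followed in the rice lamina joint, the tissue where the blade meets the sheath and bends away from the stem. They were chosen by name, as the RefSeq rice genes whose symbol or synonym is HOX, WOX, HOS, OSH, ROC or YAB with a number. Earlier results of these data were known when this choice was made. Of these genes, 56 had at least 1 probe set of their own, that is a probe set that the platform annotation pairs with exactly 1 gene, as 17905 genes on the array did. Together they had 69 such probe sets among 57381 on the array. OSH10, OSH15, HOX3, ROC9, WOX5 and YAB3 had no probe set of their own and have no value here. The name WOX5 is also a synonym of the gene called WOX9 here, and YAB3 of the gene called YAB5, and these genes were measured.

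The comparison was between the mutant ila1 (2 arrays) and the genotype ZH11 (2 arrays), both japonica rice. All samples were lamina joints of plants at the tillering stage, and the labels name no treatment, allele or plant age. The mutant is known for leaves that stand at a wider angle, and its gene for encoding a Raf-like protein kinase. Replicates are labelled as biological, but the number of plants behind each is not stated, so the p-values reported cover the variation among these samples, which may be technical. ILA1 could not be matched to a row by name, so its own level was not analysed here and gives no check of the labels.

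KNOX proteins (the OSH and HOS genes) fall into class 1, which keeps shoot meristems undifferentiated and is switched off where a leaf forms, and class 2, which is transcribed widely in differentiated organs. HD-Zip proteins join a homeodomain to a leucine zipper. Their classes I and II act mostly in responses to drought, light and hormones, class III in upper leaf side and vascular identity under the control of the microRNA miR166, and class IV (the ROC genes) in the outermost cell layer. WOX proteins act in stem cell niches and organ founder cells, and YABBY proteins in the growth and cell fates of lateral organs.

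Gene expression was measured as total RNA on 1-colour arrays of the Affymetrix rice design. The deposited value is 1 linear intensity, here called the signal, per probe set and array. Median signal over 57258 probe sets that are not controls lay between 53.6 and 57.9 on the arrays. Log2 signals of all these probe sets correlated at 0.995 between the ZH11 arrays, at 0.983 between the ila1 arrays and at 0.957 to 0.966 across genotypes, over probe sets that are not independent replicates. Precision is limited by having 2 arrays per genotype. Among markers of the lamina joint, the ligule and lamina joint gene LG1 read 312 and 340 in ZH11 and 318 and 234 in ila1, and 4 of the 6 listed genes with a probe set reached a signal of 100 on both arrays of a genotype. DL and TAC1 stayed below that level. In such bulk tissue, fewer cells of a type and less RNA per cell cannot be told apart.

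A gene was called expressed here where 1 of its own probe sets had a signal of at least 100 on both arrays of a genotype. Probe sets differ in brightness for the same amount of RNA, so this level is a description and does not order the genes. By this measure 32 of the 56 genes were expressed, through 34 of the 69 probe sets, against a background of 38.4% of all probe sets. Just outside the limit lay HOX22, at 111 and 99.4 in ZH11 and 49.3 and 216 in ila1. Just inside it lay OSH71, at 161 and 143 in ZH11 and 98.8 and 146 in ila1.

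By subfamily, the expressed genes were 5 of 9 KNOX genes, 7 of 12 HD-Zip I genes, 5 of 8 HD-Zip II genes, 4 of 5 HD-Zip III genes, 5 of 8 HD-Zip IV genes, 2 of 7 WOX genes, 3 of 6 YABBY genes, and HOX1A, a homeodomain protein with a zinc finger that belongs to none of them. The expressed KNOX genes were HOS58, HOS59, HOS66, OSH45 and OSH71. OSH1, the class 1 gene that marks the shoot meristem, read 24.3 to 31.7 on its brighter probe set and 1.57 to 2.82 on the other. Below the limit too were OSH6, at 23.5 to 33.1, OSH3 and OSH43. Among the YABBY genes, YAB5 read 27.2 to 36.3. Some YABBY genes carry more than 1 YAB number among their synonyms, and each is named here by 1 of them.

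**Figure D1:**
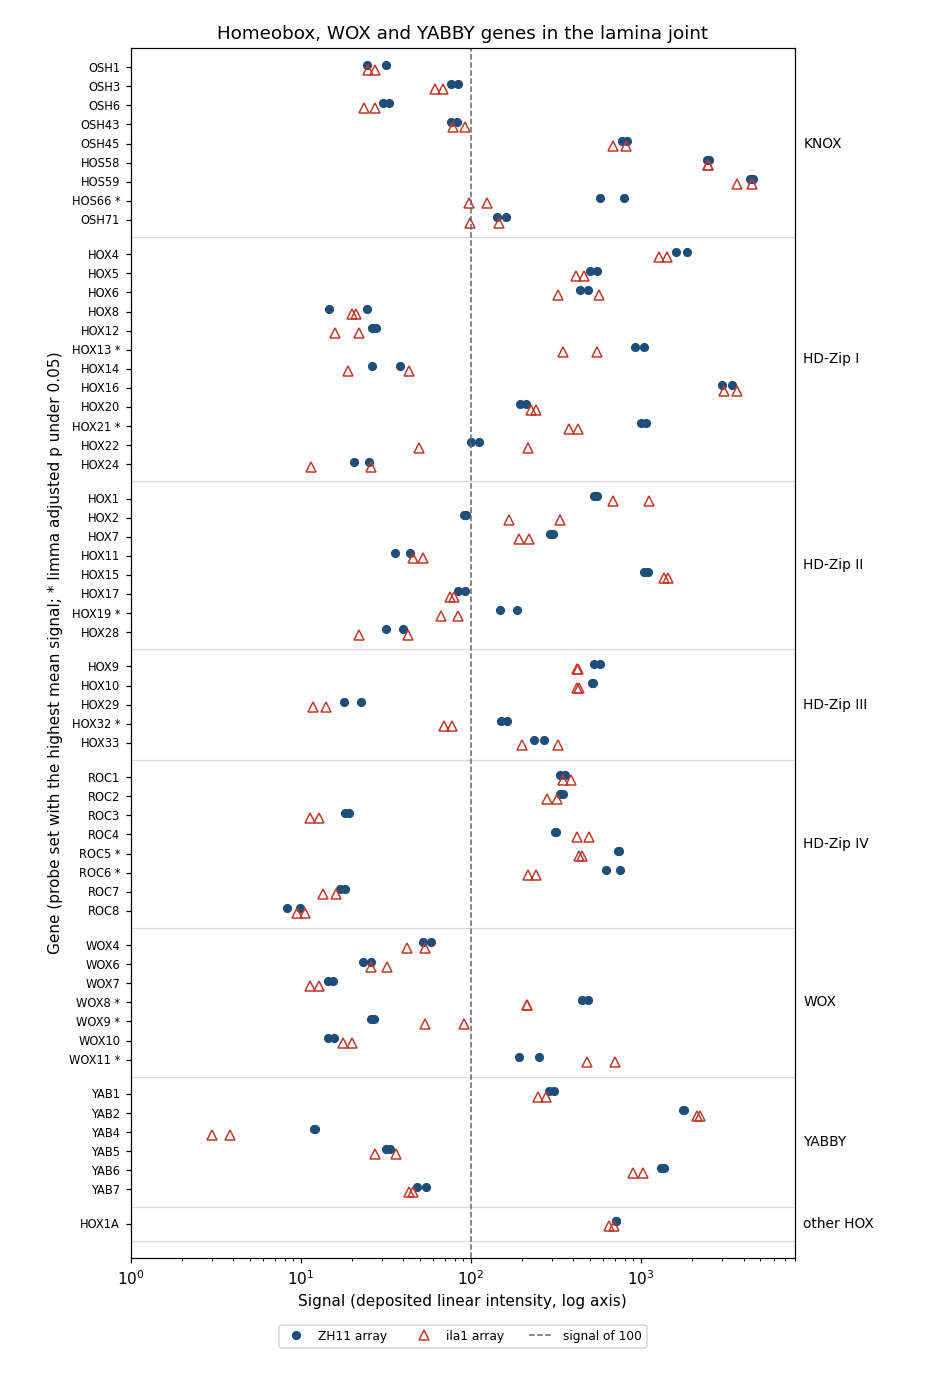
Signal on each array for the 56 genes with a probe set of their own, each read by the probe set with the highest mean signal, on a log axis. Filled circles are the 2 ZH11 arrays, open triangles the 2 ila1 arrays, the dashed line is a signal of 100, and an asterisk marks a limma adjusted p under 0.05. HOS66, ROC6, HOX21 and WOX8 lie to the left in ila1, while WOX9 and WOX11 lie to the right.

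To compare the genotypes, the probe sets of the whole array outside the lowest 40% by mean log2 signal were tested with limma on log2(signal + 16). Benjamini-Hochberg adjustment of the p-values ran over all 34355 of them. Fold changes are on this scale, which understates the change of low signals. Of the 69 probe sets, 47 (of 40 genes) passed the filter and 22 were too dim to be tested. In ila1, 8 of the 47 were lower and 3 higher at a limma adjusted p under 0.05. Over all tested probe sets 10.4% were lower and 4.71% higher, so 15.1% in either direction, against 23.4% of the 47. The 8 that fell read HOS66, ROC6, HOX21, HOX13, WOX8, HOX19, HOX32 and ROC5, and the 3 that rose read WOX11, WOX9 and HOX20. Of these, WOX9 passed the filter only through its ila1 arrays. On the same log2(signal + 16) scale, each ila1 array lay at least 2-fold below each ZH11 array in 4 of the 47 (background 4.26%). These were HOS66, ROC6, HOX21 and WOX8. In 0 of the 47 did each ila1 array lie at least 2-fold above each ZH11 array (background 0.745%).

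All 11 calls missed the threshold when either ZH11 array was left out, with limma adjusted p from 0.0589 to 0.25, fits in which the lone ZH11 array is assumed to vary like the ila1 arrays. The count of called probe sets fell when either ZH11 array was dropped and rose when either ila1 array was. Calls over the whole array moved in the same way, so this was not particular to these genes. Every one of the 11 kept its direction in these 4 fits. That was fixed in advance, because in each of them both ila1 arrays lay on 1 side of both ZH11 arrays.

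**Figure D2:**
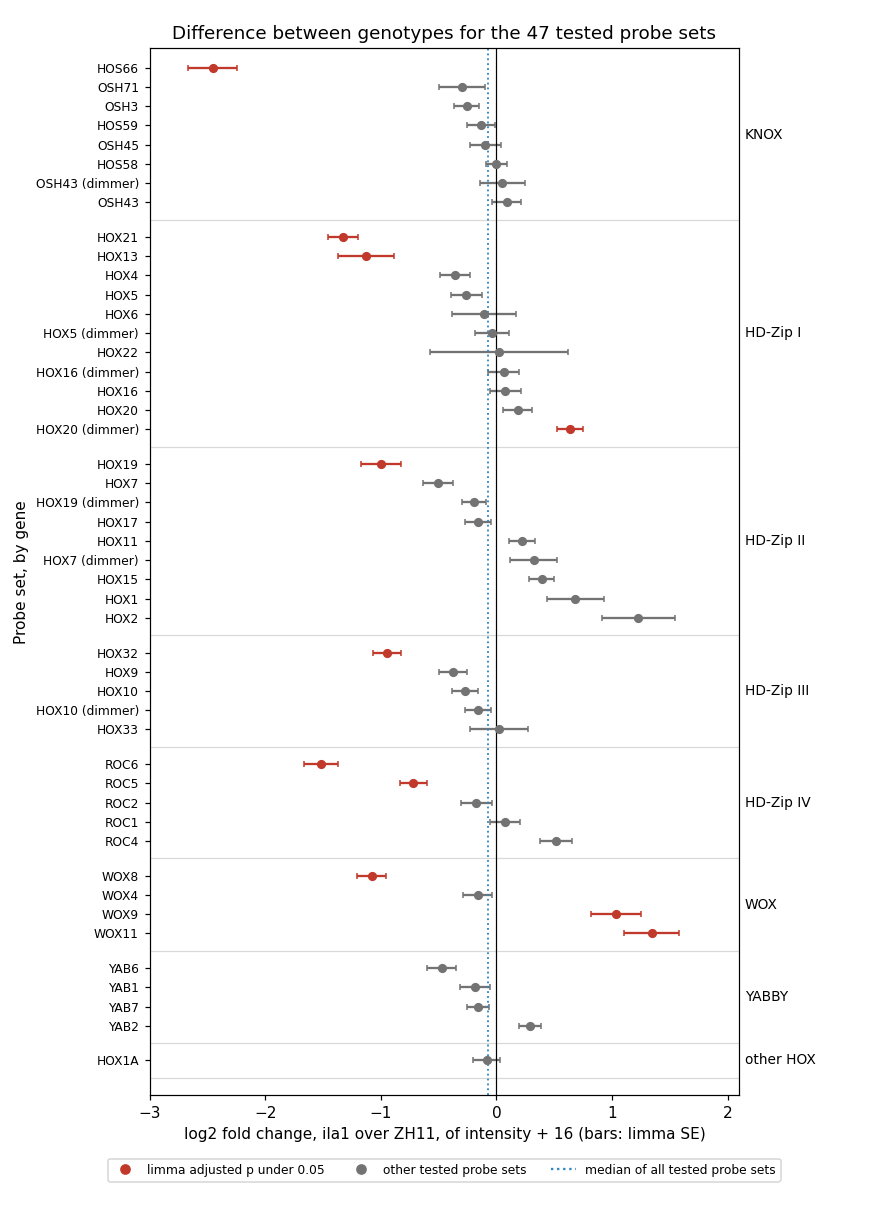
Log2 fold change of ila1 over ZH11 (horizontal axis, bars are the limma SE, n = 2 arrays per genotype) for the 47 tested probe sets, by subfamily, with the probe sets at a limma adjusted p under 0.05 in red. HOS66 stands furthest to the left at -2.45 and WOX11 furthest to the right at 1.34. A gene marked as dimmer is read there by a probe set other than its brightest.

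Among the KNOX genes only HOS66 passed the test, with a 5.475-fold lower signal in ila1. HOS66 is a class 2 KNOX gene. It read 573 and 793 in ZH11 and 124 and 97.2 in ila1. Both ila1 arrays lay far below both ZH11 arrays. The means were 683 ± 156 in ZH11 and 111 ± 19.3 in ila1 (SD, n = 2 each), a log2 fold change of -2.45 ± 0.21 (SE, limma adjusted p = 0.00518). HOS58 and HOS59, also of class 2, did not pass. HOS58 read 2495 and 2450.1 in ZH11 and 2471 and 2473 in ila1, so its ila1 arrays lay between the ZH11 arrays. Its log2 fold change was 0.00 with an interval (95%) from -0.23 to 0.23, and other scalings moved it to 0.26 (quantile), 0.09 (median centring) and 0.22 (hybridization controls) without its passing the test. HOS59 read 4349 and 4539 in ZH11 and 3676 and 4485 in ila1, with overlapping groups and an interval of the log2 fold change from -0.44 to 0.18.

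None of the remaining tested KNOX genes passed. OSH45 had a log2 fold change of -0.10 ± 0.14 and OSH71, a class 1 gene, of -0.30 ± 0.20. OSH3, which lies in the assembly's gene order with 1 gene between it and OSH1, read 76.7 and 84.1 in ZH11 and 68.0 and 61.3 in ila1 (log2 fold change -0.26 ± 0.11, limma adjusted p = 0.176). OSH43 agreed on its 2 probe sets, at 0.09 ± 0.12 and 0.05 ± 0.20. OSH1 and OSH6 were too dim to be tested. Over the 7 tested KNOX genes, each read by its brightest probe set, the median log2 fold change was -0.13, against -0.07 over all tested probe sets, and it turned to 0.08 after quantile normalization and to 0.09 with arrays scaled to hybridization controls.

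In HD-Zip class I, 2 genes fell by more than 2-fold and 1 probe set of HOX20 rose. HOX21 read 1074 and 993 in ZH11 and 426 and 378 in ila1. The groups were far apart, and the log2 fold change was -1.33 ± 0.13 (limma adjusted p = 0.00635), a 2.51-fold lower signal. Its only probe set is of the kind (suffix _x_at) in which some probes match other transcripts too. HOX13 read 1034 and 926 in ZH11 and 347 and 554 in ila1. Both ila1 arrays were lower, but they differed from each other by 0.65 on the log2 scale. Its log2 fold change was -1.13 ± 0.24 (limma adjusted p = 0.0424), but the call was lost with any of the 3 other scalings, at limma adjusted p of 0.0638 after quantile normalization, 0.0517 with median centring and 0.0534 with arrays scaled to hybridization controls.

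HOX20 gave a different picture on its 2 probe sets. The dimmer one, also with the suffix _x_at, read 67.7 and 61.6 in ZH11 and 114 and 105 in ila1 and rose, with a log2 fold change of 0.64 ± 0.11 (limma adjusted p = 0.0271). The brighter one read 212 and 195 in ZH11 and 240 and 227 in ila1, higher on both ila1 arrays, at 0.18 ± 0.13 (limma adjusted p = 0.349). HOX4, which has been tied to gibberellin responses in rice, read 1867 and 1599.8 in ZH11 and 1267 and 1422 in ila1. Its ila1 arrays were the lower ones, but the difference of -0.36 ± 0.13 did not pass (limma adjusted p = 0.129). HOX16 read 2968 and 3433 in ZH11 and 3089 and 3679 in ila1, with overlapping groups, and its interval ran from -0.26 to 0.42.

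HOX6, HOX22 and HOX24 are known as drought-responsive members of the class. HOX22 differed more between the ila1 arrays than any other of the 47 probe sets, by 1.83 on the log2 scale against 0.14 between the ZH11 arrays. HOX6 read 489 and 438 in ZH11 and 324 and 564 in ila1. In both genes ila1 replicate 1 lay below and ila1 replicate 2 above both ZH11 arrays. This order was not particular to them. It held for 3 of the 47 tested probe sets, the other being the HD-Zip III gene HOX33, against 5.94% of all tested probe sets. Among the 22 that were too dim it held for 4, which were those of HOX14 and HOX24 and the dimmer ones of ROC6 and WOX6. The opposite order held for 0 of the 47, against 6.51% of all tested probe sets, and for 2 of the 22, those of HOX28 and YAB5. For the 22 no share over all untested probe sets is at hand. HOX8, HOX12, which acts in panicle emergence, and HOX14 were too dim as well. Over the 8 tested HD-Zip I genes the median log2 fold change was -0.18, turning to 0.03 with arrays scaled to hybridization controls and running from -0.47 to -0.02 with 1 array left out.

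HD-Zip class II held values in both directions, of which 1 passed. HOX19 read 186 and 148 in ZH11 and 66.7 and 84.3 in ila1. Both ila1 arrays lay below both ZH11 arrays, and the log2 fold change was -0.998 ± 0.17 (limma adjusted p = 0.0253). A second, dimmer probe set of HOX19, with the suffix _x_at, read -0.20 ± 0.10 and did not pass (limma adjusted p = 0.243), and the remaining one was too dim to be tested. HOX7 likewise had values of -0.51 ± 0.13 and 0.32 ± 0.20 on its 2 probe sets, neither passing.

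Of the 9 tested HD-Zip II probe sets, 4 read lower on both ila1 arrays than on both ZH11 arrays (background 40.6%), HOX17 among them at -0.16 ± 0.11. Another 4 read higher on both ila1 arrays, without passing (background 26.4%). HOX2 read 91.1 and 93.0 in ZH11 and 332 and 168 in ila1. Its log2 fold change of 1.23 ± 0.31 was larger than those of WOX9 and HOX20, yet the ila1 arrays differed by 0.92 on the log2 scale and the limma adjusted p was 0.0641. HOX28, the direct neighbour of HOX2 in the assembly's gene order, read 39.7 and 31.5 in ZH11 and 42.6 and 21.9 in ila1 and was too dim to be tested. HOX1, which has been tied to provascular cell fate in rice leaves, read 526 and 549 in ZH11 and 683 and 1108 in ila1 (log2 fold change 0.68 ± 0.25, limma adjusted p = 0.128). HOX15 read 1041 and 1091 in ZH11 and 1438 and 1369 in ila1, with little spread in either group. Its log2 fold change of 0.39 ± 0.11 (limma adjusted p = 0.0719) passed under each of the 3 other scalings, at 0.63, 0.48 and 0.61. The fourth was HOX11, at 0.22 ± 0.12. Over the 7 tested HD-Zip II genes the median log2 fold change was 0.22, running from 0.12 to 0.32 with 1 array left out, and it was 0.05 without the filter on low signals.

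Of the HD-Zip class III genes, which act in upper leaf side and vein identity, HOX32 fell. It read 149 and 163 in ZH11 and 69.4 and 76.7 in ila1. The ila1 level was 1.93-fold lower, at a log2 fold change of -0.95 ± 0.12 (limma adjusted p = 0.0125), and both arrays of each genotype lay close together. In rice, more HOX32 is known to narrow and roll the leaf. HOX9 and HOX10 read lower on both ila1 arrays without passing. HOX9 read 532 and 574 in ZH11 and 426 and 419.9 in ila1 (log2 fold change -0.37 ± 0.12, limma adjusted p = 0.102). HOX10 read 513 and 520.2 in ZH11 and 432 and 418 in ila1 (-0.27 ± 0.12, limma adjusted p = 0.172), and its dimmer probe set gave -0.16 ± 0.11.

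HOX33 read 235 and 267 in ZH11 and 199 and 326 in ila1, so the groups overlapped (log2 fold change 0.03 ± 0.25). HOX29 was too dim on its own probe set, at 17.9 and 22.45 in ZH11 and 11.75 and 13.95 in ila1. Over the 4 tested HD-Zip III genes the median log2 fold change was -0.32. It stayed below 0 under the 3 other scalings, at -0.18, -0.24 and -0.11. Each is below the median of all tested probe sets in the same scaling (0.03, 0.00 and 0.12). The medians of HD-Zip I, HD-Zip IV and YABBY were also below it in each scaling, so this was not particular to class III. Those of HD-Zip II and WOX were above it in each, and that of KNOX after quantile normalization. The class III median rests on 4 genes, of which 1 passed the test.

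Of 5 tested HD-Zip class IV genes, 2 passed, and both fell (background 10.4% lower and 4.71% higher). ROC6 read 622 and 749.9 in ZH11 and 240.0 and 218 in ila1. It was 2.86-fold lower, at a log2 fold change of -1.52 ± 0.15 (limma adjusted p = 0.00668), with the groups wide apart. ROC5, which restrains the bulliform cells that roll the rice leaf, read 742 and 729.7 in ZH11 and 433 and 450.2 in ila1. Replicates of each genotype lay within 0.06 of each other on the log2 scale, and the log2 fold change was -0.72 ± 0.11 (limma adjusted p = 0.021). With arrays scaled to hybridization controls ROC5 read -0.50 and missed the threshold (limma adjusted p = 0.0526).

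The other 3 tested HD-Zip IV genes did not pass. ROC4 read 310 and 317 in ZH11 and 491 and 422 in ila1, higher on both ila1 arrays, at 0.52 ± 0.13 (limma adjusted p = 0.0666). It passed as higher under each of the 3 other scalings. ROC1 read 358 and 335 in ZH11 and 348 and 385 in ila1, with overlapping groups, and ROC2 gave -0.17 ± 0.13. ROC3, ROC7 and ROC8 read between 8.22 and 19.1 and were not tested. The markers of epidermis and cuticle that could be read were ROC1 and ROC5 themselves, so no other gene of that list stands beside these values. The median over the 5 tested genes was -0.17, turning to 0.04 with arrays scaled to hybridization controls.

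Of 4 tested WOX genes, 3 passed, in both directions, against 15.1% of all tested probe sets. The count rests on few genes, and WOX9 entered the test only through its ila1 arrays. WOX11, which drives crown root emergence in rice, read 250.3 and 192 in ZH11 and 705 and 478 in ila1. Both ila1 arrays lay above both ZH11 arrays, and the signal was 2.54-fold higher (221 ± 41.5 against 591 ± 161, SD, n = 2 each, log2 fold change 1.34 ± 0.24, limma adjusted p = 0.0276). WOX9, also named QHB or WOX5 and known from the quiescent centre of the root, read 26.8 and 25.9 in ZH11 and 91.4 and 53.8 in ila1. It stayed under a signal of 100 on every array. Both of its ZH11 signals lay below 39.57, the signal at the filter. Its log2 fold change was 1.03 ± 0.22 (limma adjusted p = 0.0407), or 0.58 with a pseudocount of 64 (limma adjusted p = 0.0528). WOX8, listed also as WOX13, read 448 and 489 in ZH11 and 212 and 214 in ila1. The ila1 arrays were nearly equal, at a log2 fold change of -1.08 ± 0.12 (limma adjusted p = 0.00973).

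Among the markers of root tissue, of 3 root genes with a probe set, 0 were expressed at a signal of 100. All 3 lay below the filter signal of 39.57 on both arrays of 1 genotype, the one in which they were lower. SCR1 rose from 32.97 and 36.4 in ZH11 to 56.6 and 69.7 in ila1 (limma adjusted p = 0.0307), SHR1 fell from 67.9 and 74.1 to 34.5 and 37.6 (limma adjusted p = 0.0137), and the remaining one is WOX9 itself. The summed signal of SCR1 and SHR1 was 100.8 and 110.5 in ZH11 and 91.1 and 107.3 in ila1, so the groups overlapped. With WOX9 added, it was 128 and 136 in ZH11 and 183 and 161 in ila1, a separation that WOX9 itself brings. Their part in the rise of WOX11 and WOX9 was not tested. WOX4, which acts in meristem and vein development, read 52.1 and 58.5 in ZH11 and 42.2 and 53.5 in ila1 and did not pass (-0.16 ± 0.13). WOX6, WOX7 and WOX10 read between 6.89 and 32.2 and were not tested.

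No YABBY probe set passed, of 4 tested (background 15.1% in either direction). YAB6 read 1370.1 and 1306 in ZH11 and 889.6 and 1031 in ila1. Both ila1 arrays were lower, at a log2 fold change of -0.475 ± 0.12 (limma adjusted p = 0.0672). YAB2 read 1788 and 1767 in ZH11 and 2122 and 2233 in ila1, so both ila1 arrays were higher, at 0.29 ± 0.10 (limma adjusted p = 0.106). The test called it higher under quantile normalization (0.55) and under control scaling (0.51).

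YAB1, which takes part in gibberellin feedback in rice, gave -0.18 ± 0.13 and YAB7 -0.16 ± 0.10. YAB4 read 12.02 and 11.86 in ZH11 and 2.98 and 3.80 in ila1. These signals are near the lowest values of the arrays and below the filter, and YAB4 was called lower when no filter was set. YAB5 was too dim to be tested. The median log2 fold change of the 4 tested YABBY genes was -0.17, turning to 0.02 with arrays scaled to hybridization controls. HOX1A read 710 and 712 in ZH11 and 694 and 645 in ila1, at -0.08 ± 0.12.

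**Figure D3:**
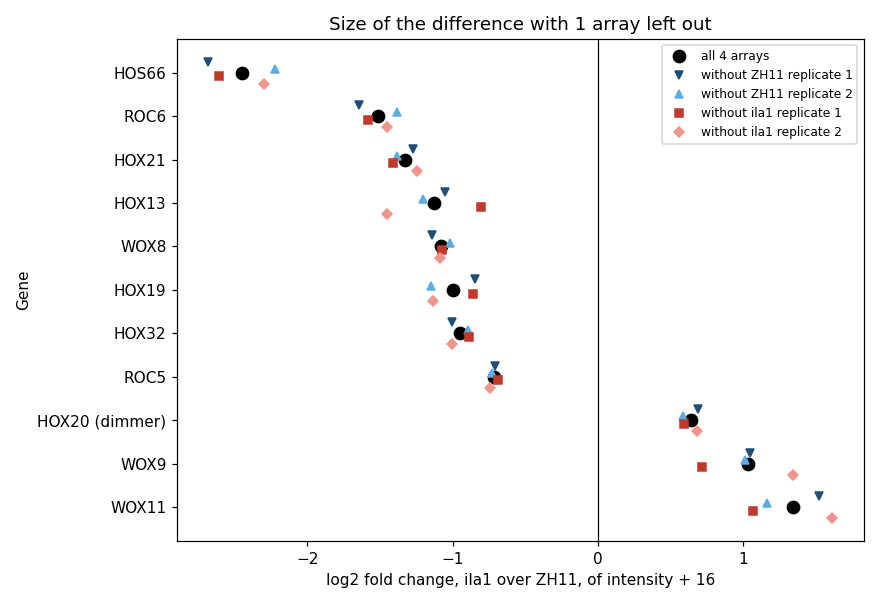
Log2 fold change of ila1 over ZH11 for the 11 probe sets at a limma adjusted p under 0.05, with all 4 arrays (black) and with each array left out in turn. All points of a probe set lie on 1 side of 0, which follows from its ila1 arrays lying on 1 side of both ZH11 arrays. Those of HOX13 run from -1.45 to -0.80.

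Spread within a genotype differed between the genotypes. In 32 of the 47 probe sets the ila1 arrays were further apart than the ZH11 arrays, and the same held for 66.3% of all tested probe sets. The median absolute log2 difference between replicates was 0.11 in ZH11 and 0.16 in ila1 for the 47, and 0.10 and 0.18 over all tested probe sets. HOX22, HOX2, HOX6, HOX1, HOX33, HOX13 and WOX9 had differences over 0.6 between the ila1 arrays. Of these, HOX13 and WOX9 passed the test.

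**Figure D4:**
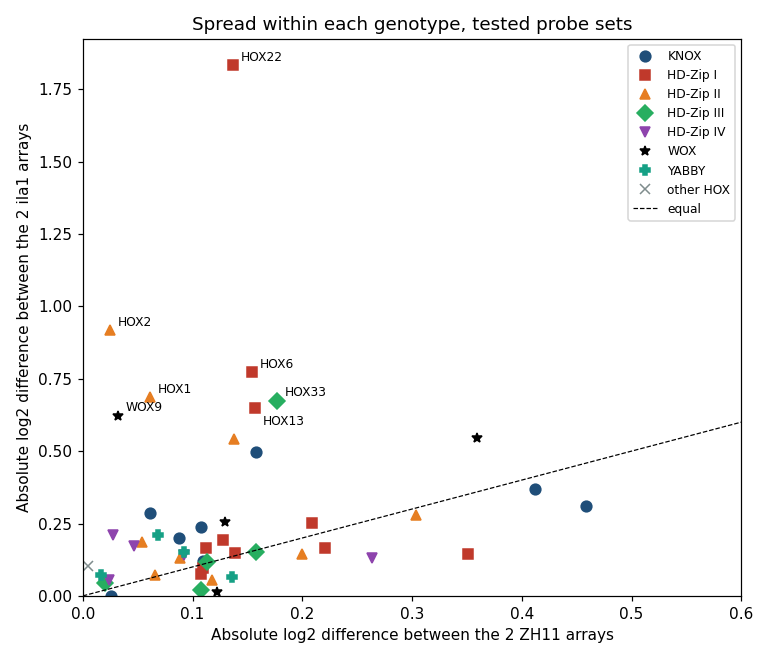
Absolute log2 difference between the 2 ila1 arrays (vertical axis) against that between the 2 ZH11 arrays (horizontal axis) for the 47 tested probe sets, coloured by subfamily, with the line of equal spread dashed. HOX22 stands at 1.83 on the vertical axis, and 32 probe sets lie above the line.

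Both ila1 arrays lay below both ZH11 arrays for 22 of the 47 probe sets (background 40.6%) and above them for 10 (background 26.4%). Other genes of leaf and meristem patterning, taken from a list of names that holds no homeobox, WOX or YABBY gene of the set above, gave 21 tested probe sets of 17 genes. Of these 5 were lower and 0 higher (23.8%, background 10.4% lower and 4.71% higher). They belong to 3 auxin response factor genes, 2 of which are read by a pair of probe sets each. With 1 probe set per gene, 3 of 17 were lower (17.6%). The count of 5 fell to 2 with arrays scaled to hybridization controls and to 0 when either ZH11 replicate 1 or ZH11 replicate 2 was dropped. ARF15 read 1883 and 2032 in ZH11 and 842 and 928 in ila1 (log2 fold change -1.13 ± 0.11, limma adjusted p = 0.00699). The other two both carry the synonym ARF2, and their brightest probe sets gave -0.69 ± 0.13 and -0.49 ± 0.11. LG1 did not pass (-0.24 ± 0.18), nor did ARF3 (-0.19 ± 0.11) or the blade-on-petiole gene BOP1 (0.05 ± 0.12). The drooping leaf gene DL, itself a YABBY gene but named outside the YAB series, read 36.6 to 42.6 over the 4 arrays.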

How the data were processed

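The authors deposited 1 linear intensity per probe set and array. Per the labels' protocols, total RNA was extracted with TRIzol and turned into biotinylated cRNA. Which software and scaling produced them is not given in the sources used here, so scaling was among the alternatives. The 123 Affymetrix controls were left out. The comparison used limma 3.58.1 under R 4.3.3 (lmFit, eBayes with a trend, two-sided, genotype as the only term), where 2 residual degrees of freedom were joined by a prior worth 2.91. The fit was tested on simulated data. Tables and plots were made in Python 3.11.15 with matplotlib 3.10.9 and pandas 2.3.3.

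Gene names came from the platform annotation and RefSeq assembly ASM3414082v1, which served for names and gene order only. A leading Os was dropped and case ignored, and the histone gene OsH2B was not counted. A gene was read by its brightest probe set for medians. Described in full were genes that passed, differed at least 2-fold in all 4 pairs or were among the 2 brightest of their subfamily, and others were added after their values were seen. The 7 subfamilies, the members and the other lists were chosen with earlier results of these data known. Of 56 partner names, 21 genes were found and 18 had a probe set. Alternatives covered scaling, pseudocount, filter, trend, replicate block and each array left out. The other marker lists, with the range of their summed signal, were photosynthetic leaf (2 genes, 17670 to 18410 in ZH11, 13420 and 19810 in ila1), vascular (3 genes, 796 to 806 and 718 to 773), shoot meristem (2 genes, 304 to 322 and 309 to 462), flower (5 genes, 588 to 656 and 524 to 531), epidermis (2 genes, 1064 and 1100 against 780.1 and 835) and lamina joint (6 genes, 843 to 866 and 769 to 879.5). Of these, 1 gene, ROC5, passed the test.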

Additional observations from a re-analysis of the deposited data

Results flagged for a closer look

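A probe set that reads HOX29 together with another gene was left out of the comparison because its signal cannot be assigned to 1 gene. It read 324 and 346 in ZH11 and 397 and 367 in ila1, higher on both ila1 arrays than on both ZH11 arrays, at a log2 fold change of 0.18 ± 0.13 (limma adjusted p = 0.353). The probe set of HOX29 alone was lower on both ila1 arrays.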

How the results depend on the processing

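The count of probe sets higher in ila1 was 3 as deposited, 6 after quantile normalization, 5 with median centring, 6 with arrays scaled to hybridization controls, 1 with the lowest 60% left out, and 0 to 9 with 1 array left out. The count lower was 8, and 0 to 17 with 1 array left out. Partner probe sets lower were 5, but 2 with arrays scaled to hybridization controls and 0 to 9 with 1 array left out, and higher 0, with 0 to 1 there. With the lowest 60% left out, WOX9 and the dimmer probe set of HOX20 were removed before the test, so they did not fail it. Scaling to hybridization controls moved the median of all tested probe sets by 0.19, quantile normalization by 0.10 and median centring by 0.07. Under these 3, in this order, 9, 10 and 10 of the 11 calls remained. With the replicate number as a block (replicate block), 3 were higher and 7 lower, and HOX13 was lost. The numbers were not shown to pair the samples, with a correlation of 0.103 between same-numbered deviations. Expressed were 32 genes, 38 at a signal of 50, 28 at 200 and 32 after quantile normalization. Subfamily medians moved beyond their spread as follows. After quantile normalization KNOX was at 0.0788, HD-Zip III -0.18, HD-Zip IV -0.0697 and YABBY -0.0941. With median centring HD-Zip III was at -0.24 and YABBY -0.0973. With arrays scaled to hybridization controls KNOX was at 0.0907, HD-Zip II 0.38, HD-Zip III -0.11, HD-Zip IV 0.0377, WOX 0.60 and YABBY 0.0162. HD-Zip II was at 0.0488 without a filter and 0.39 with the lowest 60% left out. WOX, at 0.43 as deposited, was at 0.58 with a pseudocount of 1, 0.24 with 64, 0.15 without a filter and 0.13 with the lowest 60% left out. With 1 array left out HD-Zip I ran from -0.47 to -0.0205. The sign turned for HOS58 (0.26, 0.0864 and 0.22 under quantile, median and control scaling, -0.0132 to 0.0127 with 1 array left out), HOX1A (0.0993, 0.000282 and 0.13 under the same 3 scalings), HOS59 (0.0788 and 0.0907 under quantile and control scaling, -0.27 to 0.0137 with 1 array left out) and HOX16 (-0.0471 to 0.20 with 1 array left out), passing in none except HOS59 as lower without ila1 replicate 2. The cause of these changes was not tested.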
